A study of Mus musculus with 10 samples.

Results

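The voltage-gated and potassium channel genes are the genes for pore-forming and auxiliary subunits of potassium channels (symbols starting with Kcn), voltage-gated sodium channels (Scn) and voltage-gated calcium channels (Cacna, Cacnb and Cacng), chosen by symbol. Of the 12575 genes measured, 102 matched these symbols. The 3 potassium channel entries that the rule sets aside were left out, so 99 genes remained. They comprised 66 potassium channel genes (48 for pore-forming subunits, 8 for electrically silent modifier subunits and 10 for auxiliary subunits), 11 sodium channel genes (7 pore-forming and 4 auxiliary) and 22 calcium channel genes (8 pore-forming and 14 auxiliary). The 14 were placed by symbol and include 6 Cacng genes, a family that takes in AMPA receptor regulators. All 99 were above 1 CPM (counts scaled to the total of the library) in every library, so no member was lost to the filter on low values.

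RNA of cerebral cortex was sequenced in 5 libraries of BMAL1 aKO mice and 5 libraries of Cre- littermates, all on a C57BL/6 background and 4 months old by the labels. BMAL1 aKO mice carried Aldh1l1-CreERT2 and Bmal1 fl/fl. Their Cre- littermates carried Bmal1 fl/fl without Cre, and all mice had received tamoxifen. CreERT2 is driven by Aldh1l1, an astrocyte gene, so the deletion is aimed at astrocytes, while most channel transcripts of whole cortex come from neurons that keep Bmal1. The whole gene was counted in mixed tissue, so the level of Bmal1 (Arntl in the files, log2 fold change 0.01, adjusted p = 0.932, limma) does not test the labels.

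Voltage-gated channels open when the membrane potential changes. Sodium channels carry the upstroke of the action potential, calcium channels couple it to transmitter release and to signalling inside the cell, and potassium channels repolarise the membrane, set its resting potential and limit repeated firing. Pore-forming subunits make the ion path. Silent modifier subunits form no channel of their own and join Kv2 subunits. Auxiliary subunits change the trafficking and gating of pores. BMAL1, the transcription factor deleted here, binds with CLOCK to the E-box CACGTG in the promoters of its target genes.

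Promoters of channel genes rarely held that motif. RefSeq promoter windows (250 bases before to 50 after a start site, GRCm38.p6) were at hand for 70 of the 99 genes. The E-box CACGTG, which reads the same on both strands, was in a window of 3 of the 70 (4.29%: Kcnab1, Kcnh4 and Kcnj2), against 11.8% of 9725 tested genes and 8.09% of 27025 genes in all. The related motif CACGTT, searched on both strands and without overlap with the first, was in 2 of the 70 (2.86%: Cacnb1 and Kcnj6), against 6.35% of tested genes and 5.44% of all genes. The sequences are those of Kcnd2 and Kcng3, the genes whose groups did not overlap without BMAL1 aKO replicate 3 and which hold neither motif, of Kcnj6, which holds the related motif, and of Kcnh4 and Kcnj2, which hold the E-box. Kcnj6 has 2 windows. The printed one lies inside the gene, and the one at its annotated start (chr16:94997647-94997946) holds neither motif. Capitals mark CACGTG in Kcnh4 and Kcnj2, and in Kcnj6 the related motif read from the other strand. The windows lie at chr6:21215096-21215395 (plus strand, Kcnd2), chr17:83631846-83632145 (minus, Kcng3), chr16:94856641-94856940 (minus, Kcnj6), chr11:100759729-100760028 (minus, Kcnh4) and chr11:111065914-111066213 (plus, Kcnj2).
Kcnd2: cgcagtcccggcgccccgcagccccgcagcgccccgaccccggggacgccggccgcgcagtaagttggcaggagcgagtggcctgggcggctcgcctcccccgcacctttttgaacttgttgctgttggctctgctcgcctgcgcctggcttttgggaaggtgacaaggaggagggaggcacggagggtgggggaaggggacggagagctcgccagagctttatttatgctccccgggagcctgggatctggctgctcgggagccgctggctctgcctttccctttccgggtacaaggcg
Kcng3: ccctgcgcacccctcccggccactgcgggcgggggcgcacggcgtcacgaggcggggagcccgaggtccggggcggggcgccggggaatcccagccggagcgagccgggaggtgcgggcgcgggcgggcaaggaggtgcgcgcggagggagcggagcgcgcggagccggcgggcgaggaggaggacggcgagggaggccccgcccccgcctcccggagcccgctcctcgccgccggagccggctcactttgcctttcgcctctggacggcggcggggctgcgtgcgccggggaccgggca
Kcnj6: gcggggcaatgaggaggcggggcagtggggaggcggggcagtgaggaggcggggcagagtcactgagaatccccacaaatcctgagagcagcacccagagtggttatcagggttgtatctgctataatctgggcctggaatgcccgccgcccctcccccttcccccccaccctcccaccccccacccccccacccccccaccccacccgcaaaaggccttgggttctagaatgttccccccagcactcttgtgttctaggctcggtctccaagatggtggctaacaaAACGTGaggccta
Kcnh4: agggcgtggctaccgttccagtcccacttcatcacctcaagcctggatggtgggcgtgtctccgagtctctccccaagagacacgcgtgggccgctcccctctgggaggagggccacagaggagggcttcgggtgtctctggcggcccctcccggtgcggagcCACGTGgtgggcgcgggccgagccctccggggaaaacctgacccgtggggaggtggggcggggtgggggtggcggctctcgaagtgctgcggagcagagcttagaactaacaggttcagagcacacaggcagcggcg
Kcnj2: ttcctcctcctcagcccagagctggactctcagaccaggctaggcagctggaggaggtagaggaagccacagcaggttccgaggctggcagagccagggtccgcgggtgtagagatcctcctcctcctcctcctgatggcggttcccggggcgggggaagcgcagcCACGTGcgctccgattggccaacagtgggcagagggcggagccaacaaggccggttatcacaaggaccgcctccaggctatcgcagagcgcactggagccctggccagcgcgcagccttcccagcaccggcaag
The E-box starts 87 bases before the start site in Kcnh4 and 84 bases before it in Kcnj2, while the related motif of Kcnj6 lies after the start site of its window. A match describes these letters only and is no evidence of binding. The log2 fold changes of the E-box genes between BMAL1 aKO and Cre- cortex were -0.13 for Kcnh4 (adjusted p = 0.712), -0.04 for Kcnj2 (adjusted p = 0.902) and -0.11 for Kcnab1 (adjusted p = 0.635), all by limma, and none passed the threshold.

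The libraries held 23127338 to 47964460 reads in the BMAL1 aKO group and 21844770 to 48295715 reads in the Cre- group. A channel gene had between 30 and 30247 reads in a library, with a median of 2160. Libraries were uneven. Sample quality weights, which limma derives from how far each library strays from its group, ran from 0.71 to 1.79 in BMAL1 aKO libraries and from 0.18 (Cre- replicate 3) to 7.19 (Cre- replicate 1) in Cre- libraries. Of the 99 channel genes, 49 had their highest value of all 10 libraries in Cre- replicate 3 and 20 in Cre- replicate 4, whereas 29 had their lowest in Cre- replicate 2. Each library was summarised by the median, over the 99 genes, of its log2 deviation from the gene's mean over the 10 libraries. This deviation was 0.00, -0.04, 0.07, -0.20 and -0.17 in BMAL1 aKO replicates 1 to 5, against 0.07, -0.22, 0.35, 0.20 and -0.05 in Cre- replicates 1 to 5. The groups overlapped, and the Cre- libraries spanned the wider range.

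**Figure D1:**
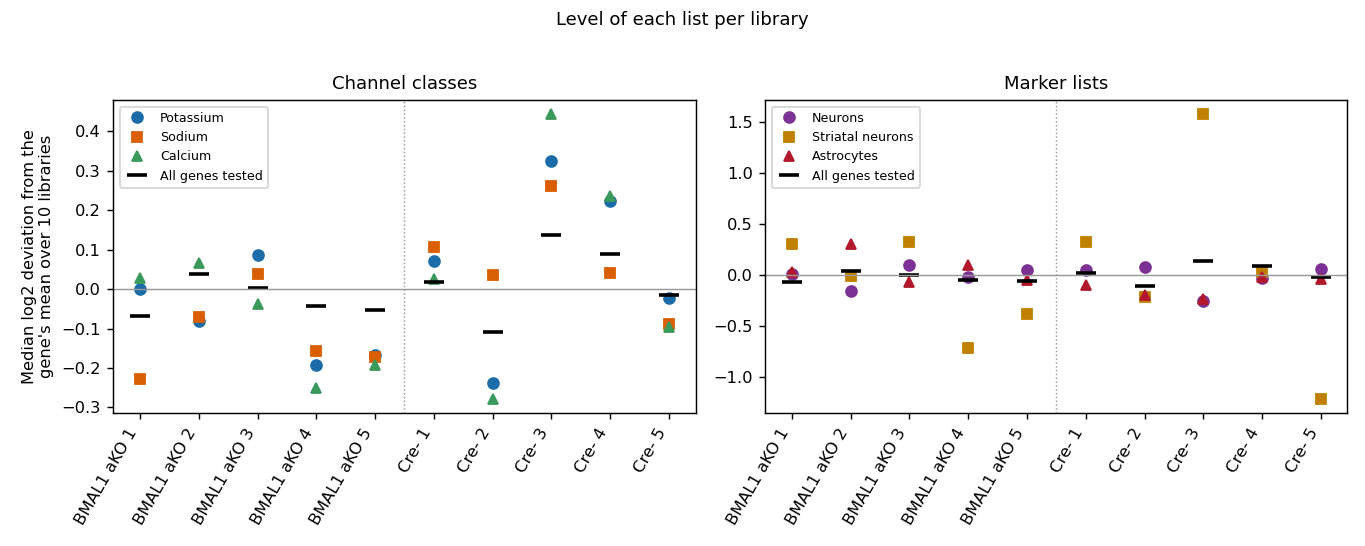
Median log2 deviation of each list of genes from its mean over the 10 libraries, by library, for the 3 channel classes and all genes (left) and for 3 marker lists and all genes (right). Cre- replicate 3 stood at 0.33 for potassium, 0.26 for sodium and 0.44 for calcium channel genes and at 1.58 for striatal neuron markers, while its neuron markers stood at -0.25.

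Cre- replicate 3 also differed in markers of other cells and regions. The summed level of 7 striatal neuron markers (Drd1, Drd2 and others) ran from 572 to 930 CPM in BMAL1 aKO libraries and from 333 to 1516 CPM in Cre- libraries, with the highest value in Cre- replicate 3 and its median log2 deviation at 1.58. In the same library the 6 microglia markers stood at 0.69. The summed level of 8 general neuron markers overlapped between the groups, at 7691 to 9118 CPM in BMAL1 aKO and 7005 to 9120 CPM in Cre- libraries. All of the neuron markers were detected in every library. In the weighted fit, the medians of the glial marker lists lay above 0. The summed level of 8 astrocyte markers was 6647 to 8213 CPM in BMAL1 aKO and 5421 to 6988 CPM in Cre- libraries. Their median log2 fold change was 0.14, with 1 marker past the threshold (Gja1, the connexin of astrocyte gap junctions). Aldh1l1, on the same list, stood at -0.04 (adjusted p = 0.865, limma). The median was 0.21 for 7 oligodendrocyte markers and 0.13 for 4 markers of their precursors, and the summed levels of both lists overlapped between the groups. It was 0.08 for the microglia markers. Group means of the log2 deviation, without weights, were 0.07 in BMAL1 aKO and -0.11 in Cre- libraries for astrocyte markers. They were -0.002 and -0.014 for oligodendrocytes, 0.04 and -0.05 for precursors, and -0.02 and 0.07 for microglia. The part of these markers in the channel results was not tested. In bulk tissue, fewer cells of a type and less RNA per cell cannot be told apart.

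No channel gene passed the threshold in the comparison of all 10 libraries. The fit was made over 12573 genes at an adjusted p of 0.1 (limma, Benjamini-Hochberg), where 42 genes (0.334%) passed, 36 higher (0.286%) and 6 lower (0.0477%) in BMAL1 aKO cortex. At an unadjusted p under 0.05 the fit counted 2 channel genes higher and 17 lower of 99, against 6.82% of all genes higher and 10.0% lower. The limma voom fit on recovered whole reads also gave 0 channel genes past the threshold, with 2 higher and 7 lower at an unadjusted p under 0.05, against 6.62% and 3.80% of all genes. The low weight of Cre- replicate 3 and the high weight of Cre- replicate 1 bear on these counts. Without Cre- replicate 3, 0 channel genes passed, and 2 were higher and 11 lower at an unadjusted p under 0.05, against 5.19% and 5.93% of all genes. Without Cre- replicate 1, 0 passed, and 2 were higher and 1 lower, against 2.56% and 1.58% of all genes. With all libraries weighted alike, 0 passed, and 0 were higher and 2 lower, against 2.51% and 2.27% of all genes. Past the threshold, 27 of all genes were higher and 2 lower with voom, and 18 higher and 1 lower without Cre- replicate 3. Without Cre- replicate 1 it was 1 higher and 0 lower, and with all libraries weighted alike 4 higher and 0 lower. The standard error of a channel gene's log2 fold change had a median of 0.11 and ran from 0.06 to 0.28.

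The fold changes of channel genes leaned below 0. The log2 fold change was below 0 for 81 of 99 channel genes, against 61.6% of all genes, with a median of -0.13 against -0.04 over all genes. With TMM scaling, which moves the median of all genes to 0.00, 72 of 99 were below 0 against 50.7% of all genes, with a median of -0.08. At an unadjusted p under 0.05, TMM scaling gave 3 channel genes higher and 12 lower, against 9.14% and 6.14% of all genes. These counts describe the list and carry no test, and the members share libraries. Xist was high in 2 libraries of each group (986 CPM or more) and at most 1.42 CPM in the others. A term for Xist gave a median of -0.07 against -0.01 over all genes, with 69 of 99 channel genes below 0. Again 0 channel genes passed the threshold, where 21 of all genes were higher and 1 lower. Channel genes span more of the genome than most genes, with a median of 60.9 kb against 26.7 kb. Over all genes, the bins of longer genes had lower medians. The median log2 fold change of all genes was -0.00 under 20 kb, -0.06 from 20 to 100 kb and -0.09 over 100 kb. That of channel genes was -0.10 (25 genes), -0.12 (34 genes) and -0.14 (40 genes) in the same bins. The part of gene span in the lean below 0 was not tested.

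Leaving out 1 BMAL1 aKO library gives the group sizes that the study states, 4 against 5. Which library that would be is not given in the sources used here, and replicate 3 was chosen with earlier results known. In its place, leaving out BMAL1 aKO replicate 1, 2, 4 or 5 gave 0 channel genes past the threshold. Over all genes, 1 was lower and 22 higher past it without replicate 1, and 1 lower and 9 higher without replicate 4. Without replicate 5, 2 of all genes were lower. Without replicate 3, 9 of 99 channel genes were lower past the threshold and 0 higher, against 4.02% of all genes lower (505), 2.70% higher (339) and 6.71% in either direction (limma). On the log2 scale the difference was below 0 for 89 of 99 channel genes, against 62.0% of all genes, with a median of -0.19 against -0.06. At an unadjusted p under 0.05, 28 channel genes were lower and 2 higher, against 14.3% and 8.47% of all genes. All 9 were potassium channel genes, with 8 for pores and 1 for a silent modifier. The calls rested on further choices. Under TMM scaling 5 of the 9 remained past the threshold (Kcnd2, Kcnj6, Kcnma1 and Kcns2 among them), against 1.14% of all genes lower. None of the 9 remained without weights, with gene-by-gene weights or with voom, against 0.00%, 0.223% and 0.111% of all genes lower. None remained when any of Cre- replicates 1, 3, 4 or 5 was also left out, against 0.00%, 0.310%, 0.143% and 0.00% of all genes. The same held without BMAL1 aKO replicate 4, against 0.0318% of all genes. Kcnd2 alone remained without BMAL1 aKO replicate 5, against 0.143% of all genes. With a further library left out, the channel genes lower past the threshold numbered 20 without BMAL1 aKO replicate 1, 21 without BMAL1 aKO replicate 2 and 17 without Cre- replicate 2, against 6.12%, 10.4% and 7.41% of all genes. Kcnmb4 was higher past the threshold in each of these 3 fits and Kcnk1 in the second, against 4.97%, 5.97% and 4.36% of all genes higher. Kcne1l was higher without BMAL1 aKO replicate 5, against 0.406% of all genes higher. A term for Xist also gave 9 lower, but only 5 of the 9 were among them (Kcna1, Kcna2, Kcnd2, Kcnh5 and Kcnq3). Cacnb4, Kcnh7, Kcnq5 and Scn1a were lower and Kcne1l higher in addition, against 1.11% of all genes lower and 1.34% higher. All 9 kept a log2 fold change below 0 in each of these fits.

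**Figure D2:**
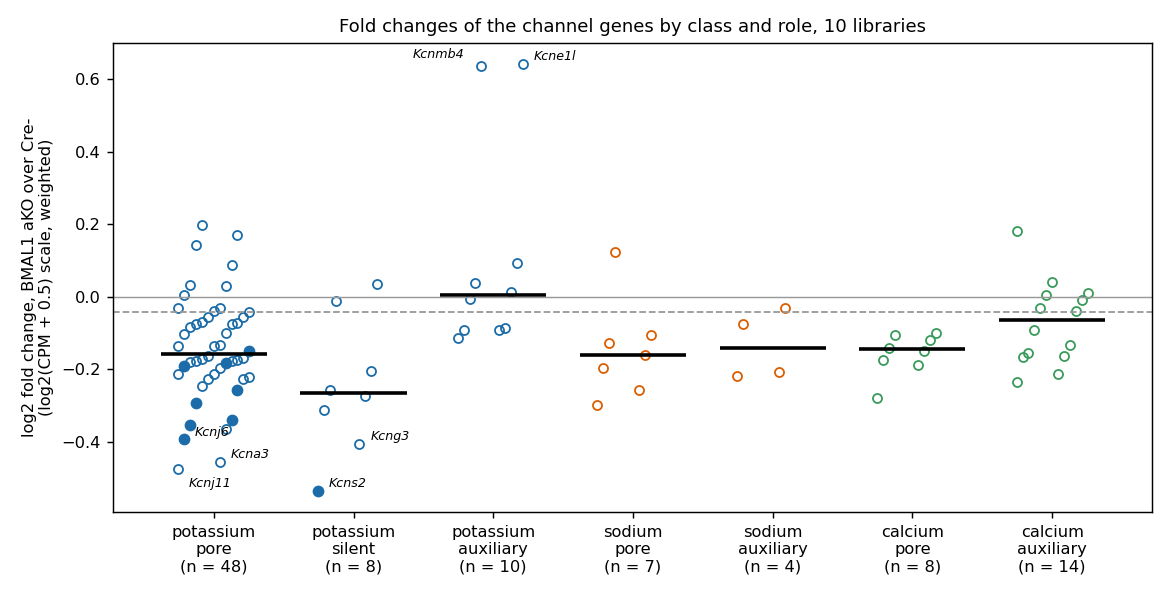
Log2 fold change of each of the 99 channel genes (BMAL1 aKO over Cre-, 10 libraries) by class and role. Filled points are the 9 genes past the threshold without BMAL1 aKO replicate 3, black bars are the medians of the sets, the dashed line is the median of all genes (-0.04), and the set medians run from -0.26 for silent potassium subunits to 0.00 for auxiliary potassium subunits.

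Kcnd2 encodes a Kv4 pore that carries the fast transient, A-type potassium current in the dendrites of pyramidal neurons. It lies on chromosome 6 (21215503 to 21729805, plus strand, GRCm38) and stood at 77.9, 72.6, 96.2, 76.1 and 85.2 CPM in BMAL1 aKO cortex (replicates 1 to 5), against 103.5, 90.7, 141.9, 106.2 and 93.9 CPM in Cre- replicates 1 to 5. Only BMAL1 aKO replicate 3 reached into the range of the Cre- libraries. Its log2 fold change was -0.29 (SE 0.08, adjusted p = 0.176, limma) with 10 libraries and -0.37 (SE 0.08, adjusted p = 0.0491) without BMAL1 aKO replicate 3. The other Kv4 pores were Kcnd3, with a value of -0.23 on the log2 scale (adjusted p = 0.245), and Kcnd1, with 0.03 (adjusted p = 0.895).

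Among the Kv1 pores, which sit along axons and at their terminals, all 6 genes had log2 fold changes below 0, with a median of -0.17. Without Cre- replicate 1 it was 4 of 6 with a median of -0.09, and 5 of 6 without Cre- replicate 3 or with voom. Kcna1 was at 275, 220, 335, 217 and 262 CPM in BMAL1 aKO cortex (replicates 1 to 5), against 300, 288, 227, 346 and 261 CPM in Cre- replicates. The groups overlapped widely, with the lowest Cre- value in replicate 3. The fitted log2 fold change was -0.15 (adjusted p = 0.489, limma) with 10 libraries and -0.29 (adjusted p = 0.0997) without BMAL1 aKO replicate 3. Kcna2, which assembles with Kcna1 in axons, stood at 146, 96.3, 148, 105 and 112 CPM in BMAL1 aKO and 141, 128, 92.7, 138 and 128 CPM in Cre- replicates, with log2 fold changes of -0.18 (adjusted p = 0.392) and -0.31 (adjusted p = 0.0988) in the same pair of fits. Kcna3, a Kv1 pore best known from lymphocytes and microglia, was at 3.27 to 4.22 CPM in BMAL1 aKO libraries and 2.11 to 15.7 CPM in Cre- libraries, the highest in replicate 3, with a log2 difference of -0.46 (adjusted p = 0.258). Of the Kv3 pores, which allow fast spiking, Kcnc1 stood at -0.18 on the log2 scale (adjusted p = 0.352).

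The Kv7 pores carry the M-current, which restrains repeated firing. Kcnq3 was at 261, 267, 316, 281 and 284 CPM in BMAL1 aKO cortex (replicates 1 to 5), against 332, 316, 260, 337 and 314 CPM in Cre- replicates 1 to 5. Apart from Cre- replicate 3 and BMAL1 aKO replicate 3, the groups did not mix. Its log2 fold change was -0.19 (adjusted p = 0.188, limma), and -0.24 (adjusted p = 0.0720) without BMAL1 aKO replicate 3. Among the Kv10 to Kv12 pores, Kcnh5 was at 31.8, 15.0, 26.7, 14.4 and 19.0 CPM in BMAL1 aKO libraries and 25.4, 29.5, 25.9, 31.7 and 24.4 CPM in Cre- libraries. BMAL1 aKO replicates 2, 4 and 5 lay below every Cre- library and replicates 1 and 3 within or above them. On the log2 scale the difference was -0.34 (adjusted p = 0.303, limma) and -0.54 (adjusted p = 0.0850) without replicate 3.

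**Figure D3:**
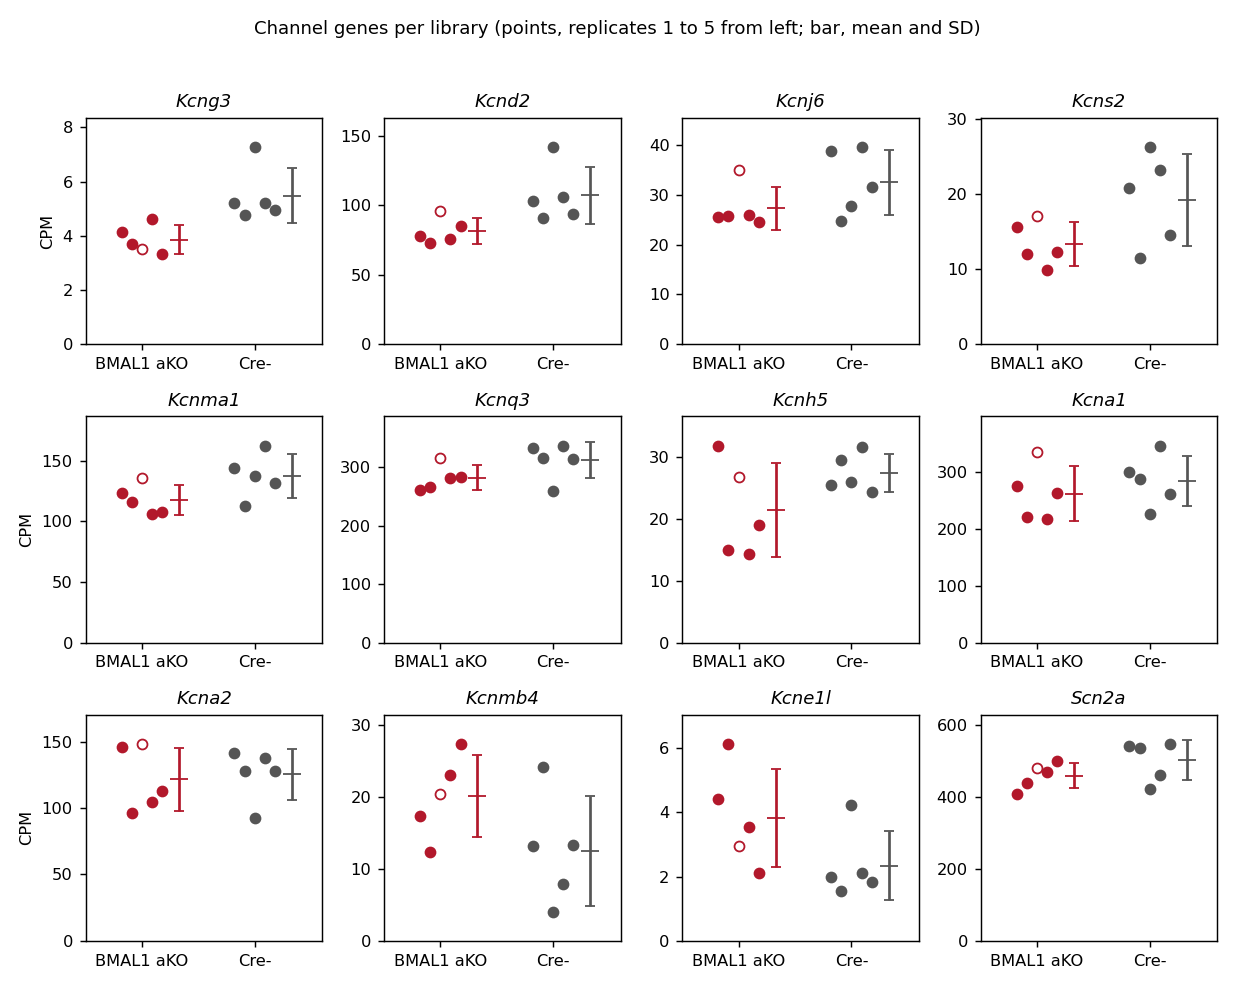
CPM per library of 8 of the 9 genes past the threshold without BMAL1 aKO replicate 3, and of Kcng3, Kcnmb4, Kcne1l and Scn2a, in BMAL1 aKO (red, left) and Cre- (grey, right) cortex. Open circles are BMAL1 aKO replicate 3, crossbars are the mean with the SD of 5 libraries, and every vertical axis starts at 0. Kcng3 is the gene with no overlap between the groups.

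The silent modifiers had a median of -0.26, with 7 of 8 log2 fold changes below 0. It was 6 of 8 with TMM scaling (median -0.22) or without weights (-0.19), and 5 of 8 without Cre- replicate 1 (-0.18). Kcng3, a Kv6 modifier on chromosome 17 (83585957 to 83631895, minus strand), was at 4.13, 3.68, 3.51, 4.63 and 3.33 CPM in BMAL1 aKO cortex (replicates 1 to 5), against 5.22, 4.76, 7.26, 5.21 and 4.96 CPM in Cre- replicates 1 to 5. Every BMAL1 aKO library was below every Cre- library. It was the only channel gene of 99 whose groups did not overlap, against 0.382% of all genes with BMAL1 aKO below and 0.620% with BMAL1 aKO above. Without BMAL1 aKO replicate 3 the groups of Kcnd2 did not overlap either, which made 2 of 99 lower and 0 higher, against 1.32% of all genes lower and 0.907% higher. The log2 fold change of Kcng3 was -0.41 (SE 0.11, adjusted p = 0.159, limma), and its adjusted p ran from 0.121 to 0.899 as each library was left out. Kcns2, a Kv9 modifier, was at 15.6, 12, 17.1, 9.86 and 12.3 CPM in BMAL1 aKO replicates and 20.8, 11.5, 26.2, 23.1 and 14.5 CPM in Cre- replicates. Cre- replicates 2 and 5 lay inside the BMAL1 aKO range, and replicates 1, 3 and 4 above it. Its log2 fold change was -0.53 (adjusted p = 0.183, limma) and -0.71 (adjusted p = 0.0616) without BMAL1 aKO replicate 3.

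Among the calcium-activated potassium channels, Kcnma1, the pore of the large-conductance BK channel, was at 124, 116, 136, 106 and 108 CPM in BMAL1 aKO cortex (replicates 1 to 5) and at 144, 113, 138, 162 and 131 CPM in Cre- replicates 1 to 5. The groups overlapped, with Cre- replicates 1, 3 and 4 above every BMAL1 aKO library. The fitted log2 fold change was -0.26 (adjusted p = 0.183, limma) and -0.35 (adjusted p = 0.0573) without BMAL1 aKO replicate 3. Kcnmb4, the neuronal beta subunit of the same channel, pointed the other way. It was at 17.4, 12.3, 20.5, 23.0 and 27.4 CPM in BMAL1 aKO libraries and 13.2, 24.2, 3.97, 7.94 and 13.3 CPM in Cre- libraries, with the highest Cre- value in replicate 2 and the lowest in replicate 3. The log2 fold change was 0.64 (SE 0.20, adjusted p = 0.183, limma), unchanged in direction by leaving out any library. Of its exons, 10.7% and 20.8% overlap the antisense genes Kcnmb4os1 and Kcnmb4os2 on the opposite strand, and the library kit does not mark strand, so their reads cannot be told apart. Kcnn2, the small-conductance SK pore, stood at -0.25 (adjusted p = 0.309).

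Of the inward rectifiers, which hold the resting potential, all 7 genes had log2 fold changes below 0 (5 of 7 without weights), with a median of -0.16. Kcnj6, the GIRK2 pore opened by G protein-coupled receptors, was at 25.6, 25.7, 35.0, 25.9 and 24.5 CPM in BMAL1 aKO cortex (replicates 1 to 5), against 38.9, 24.8, 27.8, 39.6 and 31.6 CPM in Cre- replicates 1 to 5. The BMAL1 aKO libraries other than replicate 3 lay close together, at the low end of the Cre- range. Its log2 fold change was -0.39 (adjusted p = 0.183, limma), and -0.52 (adjusted p = 0.0491) without that library. Kcnj3, the GIRK1 partner, stood at -0.07 (adjusted p = 0.731), with 31.1% of its exons under an opposite-strand transcript. Kcnj11, the pore of the ATP-sensitive channel, was at 5.15 to 9.47 CPM in BMAL1 aKO and 4.35 to 21.2 CPM in Cre- libraries, with its largest values in Cre- replicates 3 and 4 and a log2 fold change of -0.47 (adjusted p = 0.278).

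The two-pore domain (K2P) leak channels had a median of -0.03 and 5 of 9 log2 fold changes below 0, and with TMM scaling a median of 0.04 and 4 of 9 below 0. Kcnk1 was at 102, 83.3, 102, 111 and 111 CPM in BMAL1 aKO replicates and 91.6, 105, 92.0, 87.8 and 97.5 CPM in Cre- replicates, with a log2 difference of 0.14 (adjusted p = 0.324, limma). Kcnk13 stood at 0.20 (adjusted p = 0.422) and Kcnk6 at 0.17 (adjusted p = 0.364), both at 7.91 CPM or less in every library.

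The auxiliary potassium subunits had a median of 0.00, with 5 of 10 log2 fold changes below 0. This depended on the fit. Below 0 were 8 of 10 without BMAL1 aKO replicate 3 (median -0.08), 7 of 10 without weights (-0.05) and 4 of 10 with TMM scaling (0.05). Kcne1l, a small KCNE-type subunit on the X chromosome, was at 4.42, 6.12, 2.97, 3.55 and 2.11 CPM in BMAL1 aKO cortex (replicates 1 to 5), against 1.99, 1.56, 4.23, 2.13 and 1.83 CPM in Cre- replicates 1 to 5. Apart from Cre- replicate 3, the Cre- libraries lay at the low end of the BMAL1 aKO range or below it. On the log2 scale the difference was 0.64 (SE 0.19, adjusted p = 0.182, limma), the highest of the 99. Kcnab2, the most abundant Kv beta subunit per length, stood at -0.09 (adjusted p = 0.627), and Kcnip3, a KChIP subunit of Kv4 channels, at -0.09 (adjusted p = 0.467).

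Of the sodium channel genes, 10 of 11 had log2 fold changes below 0, with a median of -0.16 over the 7 pores. The count depended on the fit, with 9 of 11 under TMM scaling and 8 of 11 with voom or without Cre- replicate 1. In those last fits 6 of 7 pores stayed below 0, but only 2 of the 4 beta subunits did, against 4 of 4 in the main fit. Scn2a, the main pore of excitatory neurons alongside Scn8a, was at 408, 439, 481, 469 and 498 CPM in BMAL1 aKO cortex (replicates 1 to 5), against 541, 535, 423, 462 and 546 CPM in Cre- replicates 1 to 5. Cre- replicates 3 and 4 lay within the BMAL1 aKO range and replicates 1, 2 and 5 above it. Its log2 fold change was -0.20 (adjusted p = 0.188, limma). Scn3a, prominent before birth, stood at -0.26 (adjusted p = 0.231), Scn8a at -0.13 (adjusted p = 0.359) and Scn1a, the pore of fast-spiking interneurons, at -0.11 (adjusted p = 0.610). Among the beta subunits, which anchor pores and tune their gating, Scn2b stood at -0.21 (adjusted p = 0.323). Scn4b, rich in striatum, ranged from 87.8 to 175 CPM over the BMAL1 aKO libraries. Its Cre- values were 71.0 to 147 CPM apart from replicate 3, the library with the highest striatal markers, which held 352 CPM.

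All 8 calcium channel pores had log2 fold changes below 0, with a median of -0.14, also under TMM scaling, where the median was -0.09. Cacna1e, the R-type pore, was at 381, 523, 434, 432 and 449 CPM in BMAL1 aKO cortex (replicates 1 to 5), against 523, 399, 528, 528 and 445 CPM in Cre- replicates 1 to 5, with a log2 difference of -0.19 (adjusted p = 0.267, limma). The groups overlapped. The P/Q-type pore Cacna1a of presynaptic terminals stood at -0.12 (adjusted p = 0.594), the N-type pore Cacna1b at -0.15 (adjusted p = 0.350) and the L-type pore Cacna1c at -0.17 (adjusted p = 0.364). The T-type pores Cacna1g and Cacna1h stood at -0.14 (adjusted p = 0.649) and -0.28 (adjusted p = 0.459), each with its highest value in Cre- replicate 3. The 14 auxiliary genes had a median of -0.06. It was -0.16 for the 4 Cacnb genes, -0.06 for the 4 Cacna2d genes and -0.03 for the 6 Cacng genes. This order depended on the weights, and without them the medians were -0.06, -0.15 and -0.07. Of the 14 genes, 10 had log2 fold changes below 0, and 7 did with TMM scaling. Cacnb1 stood at -0.23 (adjusted p = 0.338), Cacna2d1 at -0.13 (adjusted p = 0.478) and Cacng2, the AMPA receptor regulator stargazin, at 0.18 (adjusted p = 0.346).

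Levels between genes were compared as CPM per kb of exon. Among the highest were Kcnab2 at 63.5 in BMAL1 aKO and 70.2 in Cre- mice, Cacng7 at 60.4 and 68.4, and Kcna1, the highest pore, at 54.8 and 59.4 CPM per kb. Cacna2d4 was lowest, at 0.287 in BMAL1 aKO and 0.349 in Cre- mice, with Kcnk10 next at 0.298 and 0.388 CPM per kb. From Kcnab2 to Kcna1, neighbours in this order differed by less than the spread of the libraries. The coefficient of variation had a median over channel genes of 15.7% in BMAL1 aKO and 23.9% in Cre- mice, against 12.2% and 17.8% over all genes. Auxiliary subunits had a median level of 20.8 CPM per kb over the 10 libraries, against 6.02 for pores.

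**Figure D4:**
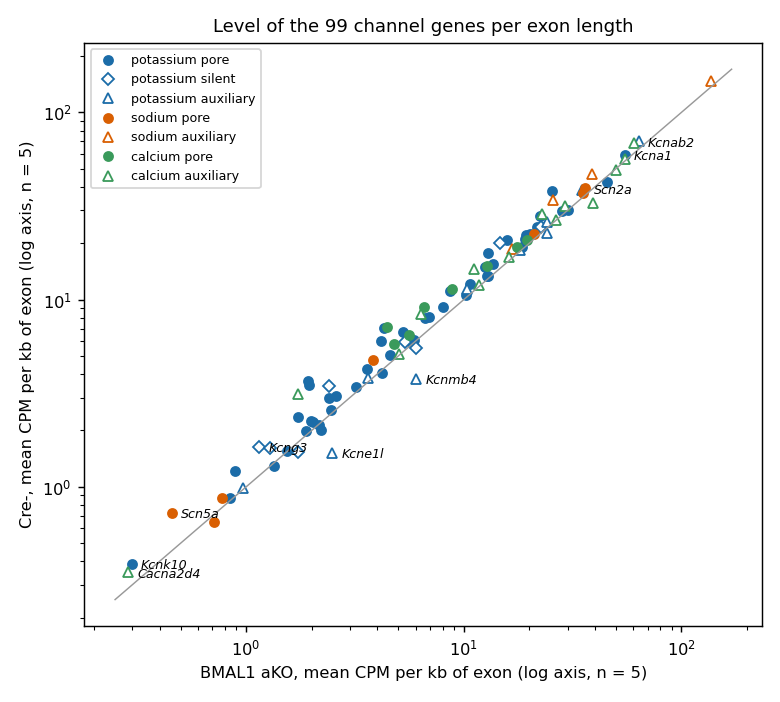
Mean CPM per kb of exon of the 99 channel genes in BMAL1 aKO (horizontal, n = 5 libraries) and Cre- (vertical, n = 5 libraries) cortex, on log axes, with filled points for pores and open points for modifiers and auxiliary subunits. The line marks equal levels, and Kcnmb4 and Kcne1l lie to its right, with Kcnmb4 at 6.05 in BMAL1 aKO and 3.77 in Cre- mice.

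Genes outside the channel families that regulate the same channels or excitability also had mostly negative values. Of 35 listed genes (Hcn pores, channel anchors, sodium leak channel subunits, calmodulins and others), 32 were tested, 0 passed the threshold with 10 libraries, and 30 had log2 fold changes below 0, against 61.6% of all genes, with a median of -0.14. At an unadjusted p under 0.05, 12 were lower and 0 higher (limma), against 10.0% and 6.82% of all genes. Without BMAL1 aKO replicate 3, 6 were lower past the threshold and 0 higher, against 4.02% and 2.70% of all genes. They were Unc79 and Unc80 of the sodium leak channel complex, Cntnap2 of the axon, Rims2 and Rimbp2 of the presynaptic active zone, and Lrrc55, a BK gamma subunit. These counts share the libraries of the channel genes and are no separate evidence.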

How the data were processed

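Cortical RNA was sequenced in 5 BMAL1 aKO and 5 Cre- libraries. The authors deposited CPM per gene and library, made by STAR 2.5.1a alignment to GRCm38 and featureCounts 1.4.6-p5, per the labels. TMM scaling is named in the methods and is absent from these CPM. Library totals were found because every value came out as a whole number of reads within 0.01 read.

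The filter was over 1 CPM in 4 or more libraries. A pseudocount of 0.5 CPM was added before log2, so fold changes of low genes are understated. limma 3.58.1 (R 4.3.3) was fitted with weights per library and a variance trend, and p was adjusted over all genes. The labels do not tie libraries to animals, so p-values measure the spread between these libraries. Replicates differed far beyond sampling noise (chi-square over degrees of freedom, 12.9 to 447). The study's voomWithQualityWeights was an alternative, on the recovered reads.

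Named genes were those past the threshold in either comparison, up to 4 of smallest p in each class and role, the 5 largest and 5 smallest fold changes, and a fixed panel. Genes named beyond these were chosen after their values were seen. Some genes that the rule names are not reported here. The members and lists were chosen with earlier results of these data known. Positions and exon lengths came from GENCODE M21. The fit was also run on simulated reads with known changes and equal or unequal scatter per library. No shift shared by many genes of a library was simulated, so that run does not cover such unevenness. Tables and figures were made in Python 3.11.15 (NumPy 2.4.6, pandas 2.3.3, matplotlib 3.10.9).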

Additional observations from a re-analysis of the deposited data

Results flagged for a closer look

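In groups of 5 libraries, the value of 1 library lay far from the other 4 in 7 of 96 groups of named genes and gene sets (a gap of over 0.71 of the group's range). Chance flags about 1 in 20 groups. Of the 7, 5 involved Cre- replicate 3. Kcng3 was at 7.26 CPM there, against 4.76 to 5.22 CPM in the other Cre- libraries. Kcne1l was at 4.23 CPM, against 1.56 to 2.13 CPM. Kcna2 was at 92.7 CPM, against 128 to 141 CPM. Scn4b was at 352 CPM, against 71.0 to 147 CPM, and Cacna1h at 164 CPM, against 28.3 to 66.7 CPM. In BMAL1 aKO libraries, Kcnj6 was at 35.0 CPM in replicate 3, against 24.5 to 25.9 CPM in the others, and Cacna1c at 126 CPM in replicate 2, against 91.3 to 98.4 CPM.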

How the results depend on the processing

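Channel genes lower numbered 0 to 9 as each library was left out (9 without BMAL1 aKO replicate 3 and 0 otherwise) and 0 elsewhere. Genes higher over the whole table numbered 4 without weights, 20 with gene-by-gene weights, 60 with TMM, 55 with median-of-ratios and 55 with quantile scaling, 21 with the Xist term, 19 at a threshold of 0.05 and 1 to 339 as each library was left out. Genes lower numbered 0 without weights, 1 with gene-by-gene weights, 10 with quantile scaling, 2 with voom, 1 with the Xist term, 1 at a threshold of 0.05 and 0 to 505 as each library was left out. All alternatives to the comparison without BMAL1 aKO replicate 3 were chosen after seeing the data. There, channel genes lower numbered 5 with TMM, 5 with median-of-ratios scaling and 9 with the Xist term, against 1.14%, 1.11% and 1.11% of all genes. They numbered 0 without weights, 0 with gene-by-gene weights and 0 with voom, against 0.00%, 0.223% and 0.111% of all genes. As another library was left out they numbered 0 to 21, against 0.00% to 10.4% of all genes. Channel genes higher numbered 1 with the Xist term, against 1.34% of all genes. They numbered 0 to 2 as another library was left out, against 0.0398% to 5.97% of all genes.

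The replicate numbers do not pair the libraries (r -0.63 to 0.36 over 5 pairs, 1 of 10 libraries best matched by its own number). With the replicate block, 6 genes were higher and 1 lower over all genes, and 0 channel genes passed. Small uncalled log2 fold changes turned sign. Scn4b was at 0.0207 with gene-by-gene weights, 0.0600 with voom and 0.22 with the block, and ran from -0.35 to 0.18 as each library was left out. Cacnb2 was at 0.0575 with the block and ran from -0.21 to 0.0600. Kcnj3 was at 0.0543 without weights and ran from -0.14 to 0.0617, Cacna2d1 was at 0.0269 without weights and ran from -0.18 to 0.0453, and Scn3b ran from -0.31 to 0.00186. Cacna1g was at 0.0118 with the Xist term. The planned edgeR and DESeq2 alternatives were not run.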
